A study of Mus musculus with 8 samples.

Results

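Border-associated macrophages are the resident macrophages of the brain's surfaces and vessel walls. Here they were chosen by marker counts, as cells with at least 2 UMIs (unique transcript molecules) of Mrc1, the mannose receptor, and at least 2 UMIs in all of Cd163, the hemoglobin scavenger receptor, Lyve1, a hyaluronan receptor, and Cbr2, a carbonyl reductase. A cell also had to hold at most 1 UMI of Arg1, at most 2 of Csf3r, 0 of Cd3e and Cd79a, and under 10 UMIs of P2ry12, Siglech and Gpr34 together per 10000. These limits were meant to keep out infiltrating macrophages with Arg1, neutrophils, lymphocytes and microglia. This rule found 120 of 39608 cells, or 0.303%, of which 72 came from the hemisphere contralateral to a stroke and 48 from the ipsilateral one. These 11 genes chose the cells, so their levels are a description. They stayed in the fits across all genes, and nothing is drawn from their rows.

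The study profiled single live brain cells with a 10x 3' assay in a stroke model, the middle cerebral artery being closed with a suture for 60 min and then reopened. All animals were male C57BL/6J mice 8 to 9 weeks old, wild type (WT) or lacking Prdx1 (labelled Prdx1-/-), the gene of a cytosolic peroxidase, and every library comes from an operated animal, with the contralateral hemisphere as the comparison. The 8 libraries are 1 each of WT and Prdx1-/-, contralateral and ipsilateral, 24 h and 48 h. The number of animals behind a library is not stated. Libraries of the other levels therefore stand in for replicates, and p-values reflect library-to-library spread alone, part of which may be technical.

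Border-associated macrophages sit in the meninges, the perivascular spaces and the choroid plexus, and most descend from embryonic precursors. They take up material from blood and cerebrospinal fluid through scavenger receptors, and are commonly divided into a Lyve1-rich type with little MHC class II and a type rich in MHC class II, the molecules that present antigen to helper T cells. After stroke they meet leaking plasma proteins and arriving blood leukocytes.

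The deposited libraries held 39433266 to 70111421 UMIs. The members' summed counts ran from 94003 to 259068 UMIs per library, so 3 UMIs, the most that a count of 0 allows, stand for 11.6 to 31.9 counts per 1000000 UMIs (CPM). The median depth was 8911.5 UMIs per member, 7400 in microglia and 15511.5 in Ccr2/Ly6c2 monocytes, and members of the ipsilateral 48 h libraries were deeper (14840.5 labelled WT, 18343 labelled Prdx1-/-). Of all cells 203 barcodes occurred in more than 1 library, 1 of them on a member. A doublet score marked 13 members, all ipsilateral. The ipsilateral 48 h library labelled WT had 6 members and was left out of the gene fits for having under 10. There and in its Prdx1-/- counterpart a single cell gave 32.3% and 26.1% of the members' UMIs. In what follows, 4 values in a row give both genotypes as labelled at 24 h, WT first, and then both at 48 h, and the ipsilateral hemisphere is also called the stroke side.

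Prdx1 itself went against one pair of labels. Members held 501, 360, 408 and 7.72 CPM of Prdx1 in the contralateral libraries and 329, 281, 947 and 14.8 CPM in the ipsilateral ones. Both 48 h libraries labelled Prdx1-/- were thus nearly free of Prdx1, whereas the 24 h libraries so labelled held it in part of their members. A Prdx1 UMI was found in 3 of 12 members of the contralateral one, where 1 member gave 33 of 41 UMIs, and in 8 of 18 of the ipsilateral one, against 13 of 13 and 12 of 14 in the WT 24 h libraries. Microglia held 255, 84.8, 316 and 4.7 CPM contralaterally. The genotype comparison below is therefore a comparison of labels.

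The members carried the known transcripts of their type that the rule had not used. Pf4, a chemokine of perivascular macrophages, stood at 2239, 1993, 750 and 853 CPM in the contralateral libraries and 700, 3506, 1755 and 1081 CPM in the ipsilateral ones. In the last 3 of these a single member gave most of the Pf4 UMIs, with 316, 138 and 158. The one at 48 h labelled WT also held 75 UMIs of Chil3, a monocyte lectin. Its counterpart labelled Prdx1-/- held 78 UMIs of Ccr2, the chemokine receptor of blood monocytes. In microglia Pf4 did not pass 14.2 CPM in any library, and in monocytes it ranged from 131 to 977 CPM. Ms4a7, a membrane protein of macrophages outside the parenchyma, lay between 253 and 886 CPM in members, between 0.164 and 4.43 CPM in microglia and between 29.3 and 304 CPM in monocytes. Folr2, a folate receptor of tissue-resident macrophages, lay between 102 and 213 CPM in members and did not pass 0.823 CPM in microglia or 8.99 CPM in monocytes. F13a1, which encodes a coagulation factor subunit, was found in 102 members, and at 553 to 1203 CPM it overlapped with the 398 to 697 CPM of monocytes. With every cell thinned to 3000 UMIs, 67.6% of contralateral (95% exact binomial interval 55.5 to 78.2) and 74.5% of ipsilateral members (59.7 to 86.1) had a Pf4 UMI, against 0.516% of microglia and 4.13% of neutrophils, and 80.6% and 87.5% without thinning. Intervals and limits cover counting error only.

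**Figure D1:**
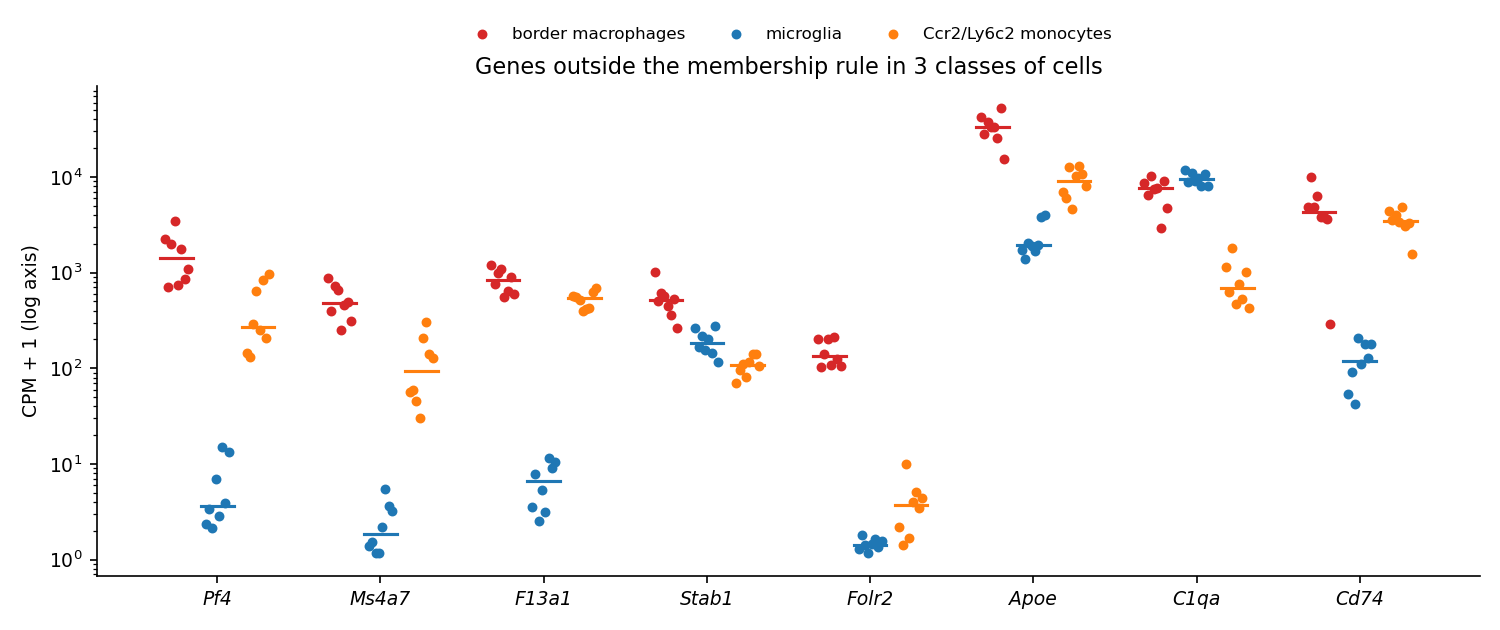
Levels of 8 genes that the membership rule did not use, in border macrophages, microglia and Ccr2/Ly6c2 monocytes. Each point is 1 of 8 libraries (summed counts, CPM + 1 on a log axis) and each bar the median. Folr2 and Pf4 were at or near 0 in microglia and higher in members than the microglial range in every library.

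Of the 4 genes Pf4, Ms4a7, F13a1 and Stab1, a scavenger receptor, 102 of 120 members had at least 3. The 4 members with none each had a UMI of Ccr2, the chemokine receptor of blood monocytes. Ccr2 was found in 34 members, 16 contralateral and 18 ipsilateral. Thinned to 3000 UMIs, 12.7% of contralateral and 29.8% of ipsilateral members had it, against 1.13% of microglia and 5.98% of neutrophils. Members with a Ccr2 UMI held a median of 13.4 UMIs of the 4 genes per 10000, and members without one held 39.8. Of the 4 genes, Stab1 is no mark of members alone. Thinned to 3000 UMIs, 63.4% of contralateral and 61.7% of ipsilateral members had it, against 46.8% of microglia.

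Other cell types' transcripts were measured in the same sums, and their part in any result was not tested unless a value is given beside it. Summed over 12 monocyte genes, the contralateral libraries held 192 to 923 CPM and the ipsilateral ones 694 to 8370 CPM. Neutrophil genes (15, Cxcr2 at 0) summed to 8.78 to 209 CPM and 340 to 1180 CPM. Of 9 endothelial genes Cldn5, for claudin 5, was at 0 in all members, and of 10 glial genes Gfap, Aqp4 and Ptprz1 were. The endothelial genes summed to 150 to 492 CPM contralaterally and 155 to 269 CPM ipsilaterally. The glial genes summed to 26.3 to 51.5 CPM and 0 to 53.9 CPM. Mural and fibroblast genes (10) summed to 8.78 to 479 CPM and 0 to 18 CPM. Microglial genes (13) summed to 2770 to 4350 CPM and 957 to 3570 CPM. In the ipsilateral 48 h libraries 6 members, 3 in each, held over 10 UMIs of Chil3, a monocyte lectin, and 5 of the 6 had neither Cd163 nor Lyve1. They gave 70.2% of the members' UMIs in the library labelled WT and 33.1% in that labelled Prdx1-/-.

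Cells on either side of the thresholds differed as follows. The 13 members with exactly 2 Mrc1 UMIs held 983.6 CPM of Pf4, and the 10 cells that missed the rule only with 1 Mrc1 UMI held 470 CPM. Just inside and just outside the limit of 2 UMIs on Cd163, Lyve1 and Cbr2 stood 27 members at 1005 CPM and 50 cells at 493.6 CPM. The limit on Arg1, an enzyme of infiltrating macrophages, left out 77 cells that met every other condition, 19 contralateral and 58 ipsilateral. These held 6878 CPM of Pf4 against 1303 CPM in the 6 members with 1 Arg1 UMI. They also held more Ms4a7 (524.8 against 110.4 CPM) and F13a1 (915.3 against 670 CPM). Whether these cells are infiltrating or border macrophages was not tested.

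The share of border macrophages among all cells did not pass the test between hemispheres. They were 0.274%, 0.231%, 0.409% and 0.695% of cells in the contralateral libraries and 0.264%, 0.316%, 0.117% and 0.198% in the ipsilateral ones (13, 12, 17 and 30 members against 14, 18, 6 and 10). The ranges overlap at 24 h, and at 48 h both ipsilateral values lie below both contralateral ones. The means were 0.402% ± 0.209 and 0.224% ± 0.086 (SD, n = 4 libraries each), a mean log2 difference of -0.81 that an exact two-sided permutation test over libraries gave p = 0.143, lower in 3 of 4 matched pairs. With the Arg1 limit lifted the members numbered 14, 17, 18 and 42 contralaterally and 18, 23, 26 and 39 ipsilaterally, and the log2 difference turned to 0.099 (exact permutation p = 0.83).

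Among cells outside microglia the share was lower on the stroke side in every pair. It was 1.75%, 1.24%, 1.54% and 1.50% of these cells contralaterally and 0.348%, 0.367%, 0.127% and 0.207% ipsilaterally, with no overlap. The log2 difference was -2.64 (means 1.51% ± 0.21 and 0.262% ± 0.115, n = 4 libraries each) and the exact permutation p = 0.0286, the smallest that 4 against 4 libraries allow. Tested as 4 matched pairs the exact sign-flip p was 0.125, the smallest that 4 pairs allow. These denominators, the cells under 10 microglial UMIs per 10000, were larger ipsilaterally, 4021 to 4909 cells against 743 to 1998. Another denominator held all cells outside the counting rules for microglia, monocytes and neutrophils. The microglia rule there also set upper limits on Mrc1 and Csf3r, so some cells rich in microglial UMIs stayed in it. With it the means were 1.05% and 0.581% and the log2 difference -0.77 (exact permutation p = 0.0857). Monocytes and neutrophils alone were not taken out of the first denominator. A smaller share cannot be told apart from a larger number of other cells.

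**Figure D2:**
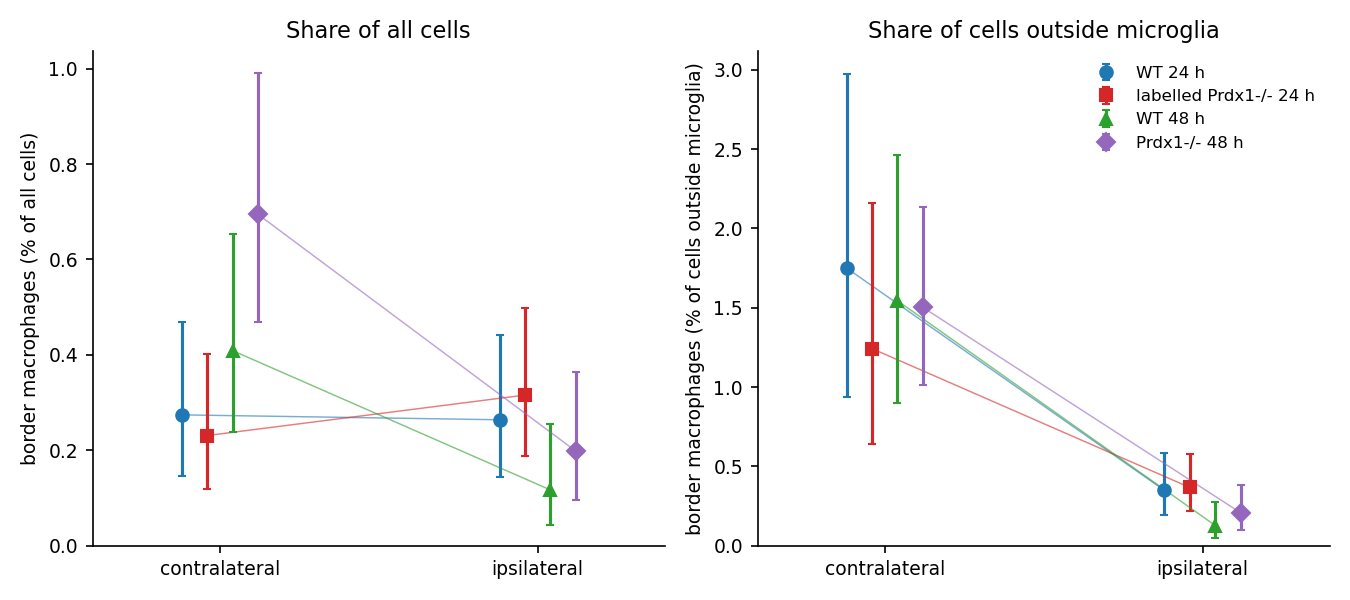
Border macrophages as a percentage of all cells (left) and of cells outside microglia (right), in the contralateral and ipsilateral library of each labelled genotype and time. Bars are exact 95% binomial intervals. The left panel overlaps between hemispheres, and in the right panel the 4 contralateral libraries (1.24% to 1.75%) lie above the 4 ipsilateral ones (0.127% to 0.367%).

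Members with Lyve1 held little MHC class II, and members rich in class II mostly lacked Lyve1, while 51 of the 120 had neither Lyve1 nor a high class II level. The summed level of H2-Aa, H2-Ab1, H2-Eb1 and Cd74, which encode class II chains and the invariant chain, ran from 0 to 907 UMIs per 10000 in single members. Of the 120, 24 held over 100 and 74 under 10. Of the 47 members with a Lyve1 UMI, 44 held under 10 and 2 over 100. The 73 members without Lyve1 contained 33 with Ccr2, whose median class II level was 167 per 10000, and 40 without Ccr2, at 8.24. Only 1 member had both Lyve1 and Ccr2, and 20 of the 24 class II-rich members had Ccr2.

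Summed per library, class II stood at 455, 56.6, 15.6, 705 and 342 CPM in Lyve1-positive members and 15720, 19010, 19290, 13330 and 10940 CPM in Lyve1-negative members. These are the 5 libraries with at least 5 members on each side (WT 24 h contralateral, Prdx1-/- 24 h contralateral and ipsilateral, then WT and Prdx1-/- 48 h contralateral). The Lyve1-positive value was the lower one in 5 of 5, with a mean log2 difference of -6.60 ± 2.60 (SD, n = 5 libraries). Lyve1 was in the rule, and a member without it had to pass through Cd163 or Cbr2, so the difference is a description with no test.

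Few cells carried the class II of the Lyve1-negative side. A single member gave 83.8% of it in the contralateral WT 24 h library, and 2 members gave 96.2% in the contralateral WT 48 h library. Of the 24 class II-rich members 6 had no UMI of Pf4, Ms4a7 or F13a1, and 4 of these 6 had Cd209a or Flt3, genes of dendritic cells. Over the 5 libraries Lyve1-negative members held 41 UMIs of Cd209a, 14 of Itgax and 4 of Flt3, and Lyve1-positive members 1, 1 and 0. Without the 7 members that lacked Pf4, Ms4a7 and F13a1, an alternative chosen after the data were seen, Lyve1-negative members held 2990, 19000, 19300, 699 and 8600 CPM of class II. The Lyve1-positive members were then lower in 4 of 5 libraries, the contralateral WT 48 h library being level at 705 and 699 CPM.

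**Figure D3:**
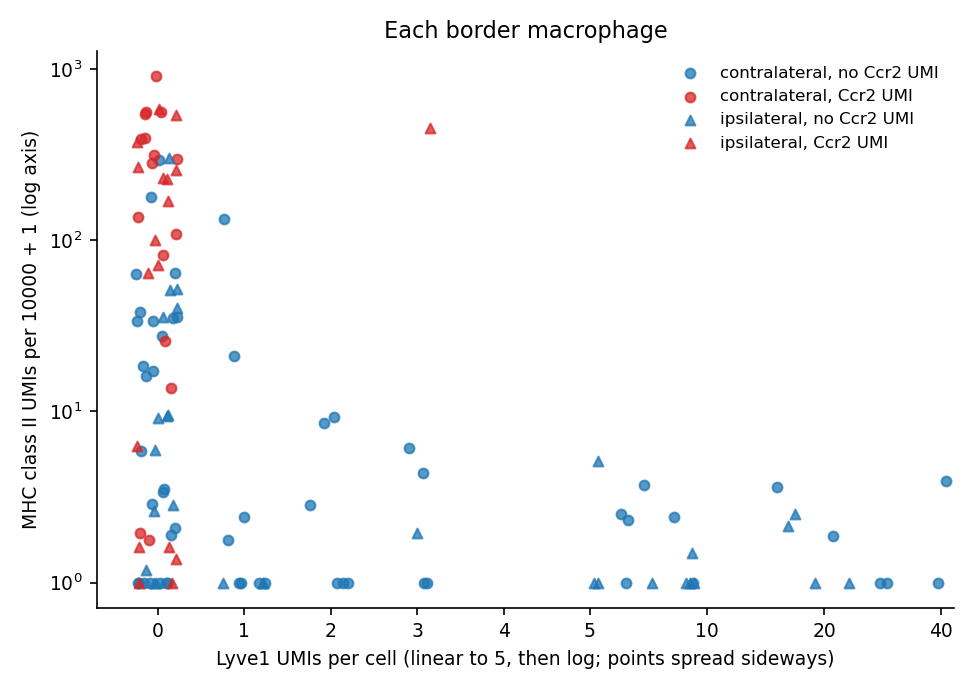
Lyve1 UMIs and MHC class II UMIs (H2-Aa, H2-Ab1, H2-Eb1 and Cd74, per 10000, plus 1, log axis) in each of the 120 members, by hemisphere and by a Ccr2 UMI. Of the 47 members with Lyve1, 44 lie under 10, and the members with Ccr2 crowd at 0 Lyve1 UMIs and high class II.

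Other listed genes followed the same division, given here as a description with no test. Of 24 genes of the border macrophage core list with at least 50 UMIs over those 5 libraries, 12 were higher in Lyve1-positive members in 5 of 5 libraries and 0 were lower in all. Over 2612 genes with that many UMIs, 7.35% were higher and 6.01% lower in all 5. Pf4 had a median of 2390 CPM in Lyve1-positive and 1120 CPM in Lyve1-negative members. Clec10a, a galactose-binding lectin, stood at 396 and 65.7 CPM, and Cd38, an NAD-consuming ectoenzyme, at 472 and 218 CPM. Chemokines divided. Ccl2 and Ccl7, which draw monocytes through Ccr2, had medians of 3300 and 2110 CPM with Lyve1 and 320 and 65.7 CPM without it. Ccl4, another chemokine, had 310 CPM with Lyve1 and 2750 CPM without. All 6 class II genes with enough UMIs were lower with Lyve1 in 5 of 5 libraries, as were Nfkbia, Socs3 and Tnfaip3, which feed back on inflammatory signalling.

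Summed over members, the stroke side held more Il1a, Nlrp3, Ell2 and Adam8 transcript, among others, and less of the ferroportin transcript Slc40a1. Across 7 libraries and 2763 genes, 30 were higher (1.09%) and 2 lower (0.0724%) in the ipsilateral hemisphere, 1.16% in all (edgeR quasi-likelihood test, additive in labelled genotype and time, adjusted p under 0.05). One of the 2 lower genes, Gpr34, belongs to the rule. DESeq2 called 22 and 4. On simulated counts of this comparison 18% of 2-fold and 97.9% of 4-fold changes were recovered. The count was 14 without the stroke-side Prdx1-/- 48 h library, 12 without the stroke-side WT 24 h library, and 3 with all 8 libraries and no marked doublets. Of the 31 called genes outside the rule, 20 had ipsilateral and contralateral libraries that did not overlap, against 5.65% of all genes tested. The test chose these genes from the same sums, so this count is a description and lends the calls no support.

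Il1a, the interleukin 1 alpha alarmin, stood at 0, 43.9, 28.1 and 11.6 CPM in the contralateral libraries and 287, 185, 234 and 183 CPM in the ipsilateral ones. The lowest stroke-side value lies above the highest contralateral one. Il1a rose by 3.37 on the log2 scale (SE 0.50, adjusted p = 0.0078, edgeR). Leaving out the stroke-side WT 24 h library (adjusted p = 0.151) or the stroke-side Prdx1-/- 48 h library (0.13) ended the call.

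Nlrp3, the sensor of an inflammasome, went with it, at 8.36, 70.2, 75 and 42.5 CPM against 335, 150, 287 and 405 CPM. Its groups do not overlap either, and it rose by 2.83 (SE 0.46, adjusted p = 0.0193, edgeR). The adjusted p passed 0.05 when any of 4 libraries was left out, reaching 0.293 without the stroke-side Prdx1-/- 48 h library. Tnf, tumor necrosis factor, was at 159, 114, 590 and 112 CPM and at 861, 407, 128 and 765 CPM. It was higher on the stroke side in 3 of 4 pairs, the exception being WT at 48 h, whose ipsilateral library of 6 members was not in the fit. Tnf rose by 2.15 over the 7 fitted libraries (SE 0.32, adjusted p = 0.0043, edgeR), and with all 8 libraries the value was 1.42 (adjusted p = 0.564). With the Arg1 limit lifted Tnf was at 0.82 (adjusted p = 0.751, edgeR).

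Ell2, an elongation factor of RNA polymerase II, gave 16.7, 8.78, 18.7 and 7.72 CPM against 132, 144, 181 and 207 CPM. The 2 groups stand apart in every pair, and the rise was 3.77 (SE 0.43, adjusted p = 0.00033, edgeR). Adam8, a metalloproteinase of activated leukocytes, gave 16.7, 17.6, 9.37 and 23.2 CPM against 114, 371, 63.8 and 193 CPM, a rise of 3.28 (SE 0.38, adjusted p = 0.00033, edgeR). In those contralateral libraries 3 UMIs stand for 25.1, 26.3, 14.1 and 11.6 CPM. Most contralateral values of Ell2 and Adam8 lie below that, so the sizes of these rises rest on few UMIs. Neither call was lost when any of the 7 libraries was left out, but at 5% mitochondrial UMIs, with 5 libraries fitted, Ell2 (adjusted p = 0.27) and Adam8 (0.262) did not pass, nor did Ell2 without marked doublets (0.872). Lmna, the nuclear lamin, rose by 2.28 and Egr2, an immediate-early transcription factor, by 2.11. Both had groups that did not overlap, and both calls were lost without the stroke-side WT 24 h library (adjusted p = 0.0836 for each, edgeR) and without the contralateral 24 h library labelled Prdx1-/- (0.0707 and 0.0763), and that of Lmna without the stroke-side Prdx1-/- 48 h library (0.143).

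S100a4, a calcium-binding protein of motile cells, had the largest fold change of the named genes. It was at 8.36, 17.6, 239 and 73.3 CPM against 377, 108, 840 and 1067 CPM, higher in 4 of 4 pairs with overlapping groups (log2 fold change 3.85, SE 0.35, adjusted p = 0.00013, edgeR). S100a6, its relative, was at 66.8, 70.2, 567 and 235 CPM against 544, 329, 2255 and 1807 CPM and rose by 2.64. Ptgs2, the inducible prostaglandin synthase, was at 41.8, 8.78, 127 and 15.4 CPM against 305, 89.8, 362 and 380 CPM and rose by 3.59. With the Arg1 limit lifted the calls of S100a4 (0.95, adjusted p = 0.687), S100a6 (1.1, 0.464) and Ptgs2 (1.79, 0.0763) were lost (edgeR). Monocytes held these 3 genes too, with S100a4 between 888 and 1554 CPM, S100a6 between 1785 and 3422 CPM and Ptgs2 between 345 and 1123 CPM, ranges that the stroke-side members overlap.

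The 86 members without a Ccr2 UMI numbered 12, 8, 14 and 22 in the contralateral libraries and 9, 13, 3 and 5 in the ipsilateral ones, so that 3 UMIs stand for 16.9 to 107 CPM. In them S100a4 was at 0, 0, 108 and 22.6 CPM contralaterally and 11.6, 39.4, 0 and 21.6 CPM ipsilaterally, mostly at or near that level, and its direction cannot be read from them. Il1a in the same members was at 0, 26, 38.3 and 11.3 CPM against 314, 266, 35.7 and 162 CPM, far above that level on the stroke side except in the WT 48 h library of 3 such members. In the stroke-side Prdx1-/- 48 h library, 1 cell of 52932 UMIs made up most of the 92614 UMIs of such members. That cell held 34 UMIs of Mki67, a proliferation gene, 17 of Tmem119, a microglial gene, and 0 of Pf4, Ms4a7 and F13a1. Its part in the Il1a value was not tested. Ccr2 itself rose by 1.41 over all members (adjusted p = 0.0164, edgeR), a call lost in 5 of the 7 fits with 1 library left out (up to 0.151). With marked doublets left out, S100a4 was 2.34 (adjusted p = 0.548), S100a6 -1.33 (0.945), Ptgs2 2.49 (0.857) and Ccr2 -2.45 (0.262) in the 5 libraries that kept 10 members.

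S100a8 and S100a9, the calprotectin subunits that neutrophils hold in bulk, rose by 3.49 and 2.69. The S100a9 call was lost in 4 of 7 fits with 1 library left out and with all 8 libraries (adjusted p = 0.101), and S100a8 did not pass without the stroke-side Prdx1-/- 48 h library (0.0511) or without marked doublets (0.224). S100a8 was at 16.7, 8.78, 9.37 and 50.2 CPM against 102, 174, 63.8 and 484 CPM. Microglia of the ipsilateral libraries held similar levels, 218, 159, 81.6 and 312 CPM, and the hemisphere difference of members did not differ from theirs by the test (0.38, SE 0.47, adjusted p = 1, edgeR). Thinned to 3000 UMIs, 12.7% of contralateral and 48.9% of ipsilateral members had an S100a8 UMI, against 99.8% of neutrophils and 12.1% of microglia.

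**Figure D4:**
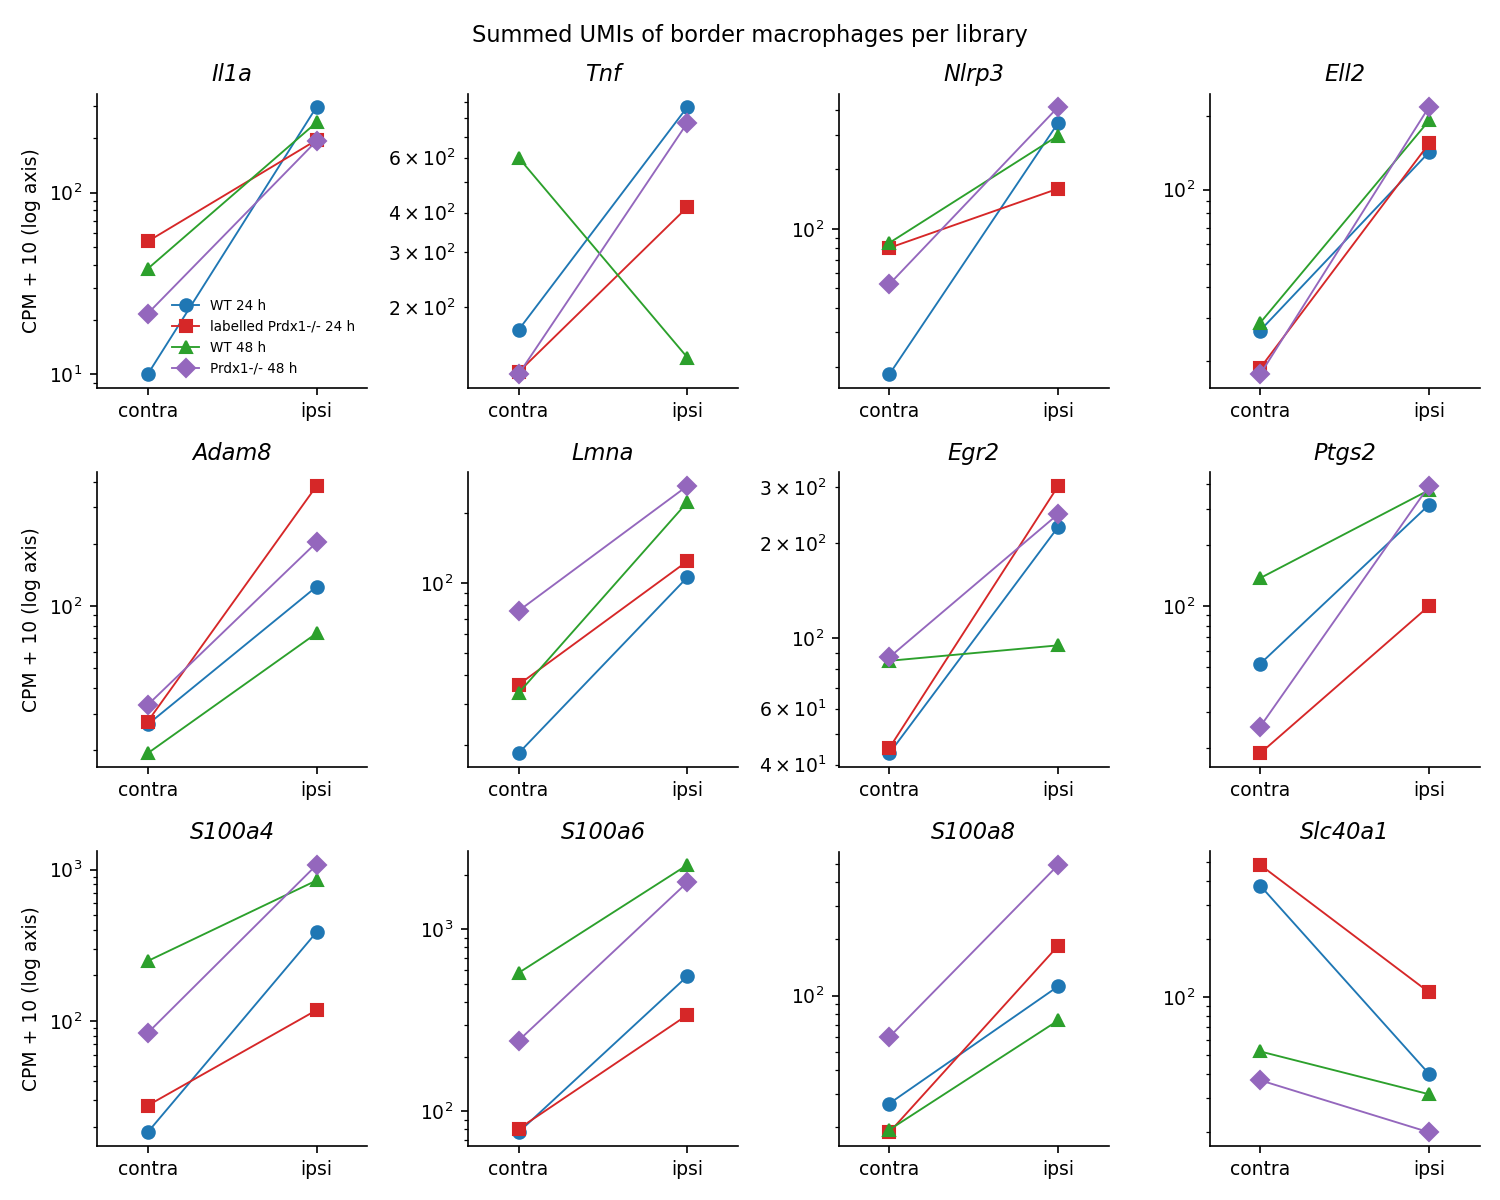
Summed counts of border macrophages (CPM + 10, log axis) for 12 genes, with a line joining the contralateral and ipsilateral library of each labelled genotype and time. Il1a, Nlrp3, Ell2, Adam8, Lmna, Egr2 and S100a8 show no overlap between hemispheres, Tnf goes down in the WT 48 h pair, and Slc40a1 goes down in all 4 pairs and from 24 h to 48 h.

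Slc40a1 encodes ferroportin, the only known exporter of iron from cells. It was at 368, 474, 42.2 and 27 CPM in the contralateral libraries and 29.9, 95.7, 21.3 and 9.88 CPM in the ipsilateral ones. It was lower on the stroke side in 4 of 4 pairs, and both 24 h contralateral libraries stand far above the rest. Ferroportin fell by 2.66 on the log2 scale (SE 0.39, adjusted p = 0.0038, edgeR), and by 2.09 without the stroke-side WT 24 h library (adjusted p = 0.0845). At 5% mitochondrial UMIs the value was -3.01 (adjusted p = 0.124, edgeR), and without marked doublets -1.53. Thinned to 3000 UMIs, 15.5% of contralateral (8.0 to 26.0) and 12.8% of ipsilateral members (4.83 to 25.7) had a Slc40a1 UMI. Without thinning the shares were 19.4% and 20.8%. These shares pool both times, and most contralateral members came from 48 h libraries but most ipsilateral ones from 24 h libraries. Slc40a1 was itself lower at the later time. The pooled shares therefore cannot show whether fewer members held the transcript on the stroke side. Microglia held 107, 58.6, 53.1 and 53.1 CPM contralaterally and 62.3, 28.8, 40.5 and 45.6 CPM ipsilaterally. The fall in members was larger than in microglia by 1.88 (SE 0.40, adjusted p = 0.00089). Of 10 tested genes of the heme and iron list, Slc40a1 alone passed the test between hemispheres. Hmox1, heme oxygenase 1, was at 827, 1124, 197 and 205 CPM against 245, 838, 553 and 701 CPM (log2 fold change -0.09, adjusted p = 0.981). Gpx3, a secreted glutathione peroxidase, was lower in 4 of 4 pairs at -1.41 and missed the threshold (adjusted p = 0.0519).

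Few listed genes passed between hemispheres. Of 24 tested core genes of border macrophages 0 passed in either direction. Their median log2 fold change was -0.66, against -0.01 for all genes, and 11 had an unadjusted p under 0.05, all lower. Over all 2763 genes tested, 340 had such a p in either direction (edgeR). Ms4a7 was at -0.60 (adjusted p = 0.399). Pf4 at -0.18 (0.921) and Dab2, an endocytic adaptor, at 0.13 (0.908) lay above the list's median and do not stand for the list. Of 14 scavenger receptor and endocytosis genes 0 passed. Of 16 cytokines and chemokines Il1a and Tnf rose and 14 did not pass, with Ccl2 at 0.97 (0.384) and Il1b at 1.41 (0.713). Of 14 matrix and wound genes S100a4, S100a6, Adam8 and Plaur, the urokinase receptor, rose. Plaur rose by 2.09 (adjusted p = 0.0172), a call lost in 5 of 7 fits with 1 library left out (up to 0.292) and with DESeq2 (0.0693). Spp1, osteopontin, was at 1228, 808, 183 and 1131 CPM against 1764, 3883, 532 and 3486 CPM and did not pass (1.60, adjusted p = 0.404). Of 11 glycolysis and hypoxia genes Pkm, pyruvate kinase, rose by 1.39, and of 11 NF-kB feedback genes Ier3 rose by 1.23. These calls were lost in 5 (Pkm, up to adjusted p = 0.378) and 6 (Ier3, up to 0.299) of 7 such fits. None of 6 class II genes, 6 interferon genes, 10 NRF2 targets, 17 efferocytosis and complement genes, 20 lysosomal genes or 18 macrophage transcription factors passed.

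The promoters of the 30 higher genes were searched for motifs as a description. The test chose these genes by direction, and whether they vary together was not tested. All 30 were in the RefSeq promoter table (GRCm38.p6, 51 promoters, the 250 bases before each start). The AP-1 motif TGANTCA was found, on either strand, in 3 of the 51 (5.88%) and in 6.75% of all 32851 promoters. An NF-kB motif (GGG, any 2 bases, TTTCC) was in 0 of 51 and 1.41% of all, and TGACNNNGC, the core of the antioxidant response element, in 13.7% and 10.2%. The genes with an AP-1 match were Il1a, Plaur and Csrnp1. A match is a description of the letters and not of binding. The first 2 are shown for where the match lies, in capitals, at chr2:129309973-129310222 on the minus strand for Il1a and chr7:24462233-24462482 on the plus strand for Plaur.
Il1a: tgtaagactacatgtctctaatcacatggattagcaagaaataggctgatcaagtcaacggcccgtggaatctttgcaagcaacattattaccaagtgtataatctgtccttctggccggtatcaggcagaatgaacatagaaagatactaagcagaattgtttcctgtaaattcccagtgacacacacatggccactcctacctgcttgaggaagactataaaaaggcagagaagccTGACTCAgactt
Plaur: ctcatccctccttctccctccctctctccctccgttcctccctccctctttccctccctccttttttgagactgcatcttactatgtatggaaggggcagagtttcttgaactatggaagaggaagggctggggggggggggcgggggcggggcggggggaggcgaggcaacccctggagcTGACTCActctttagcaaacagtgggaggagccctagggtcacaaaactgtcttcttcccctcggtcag
In Il1a the match lies near the end of the window, close to the start of transcription.

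Cd38 and 2 lectin genes had a hemisphere difference in members below that in microglia. Of 9039 genes, 40 (0.443%) had a higher and 38 (0.42%) a lower ipsilateral difference in members than in microglia, 0.863% in all (edgeR test of class by hemisphere with the library as a block). Cd38 was at 393, 281, 380 and 409 CPM in contralateral members and 191, 305, 213 and 123 CPM in ipsilateral ones, lower in 3 of 4 pairs. In microglia it was at 0.487, 0.491, 1.26 and 2.01 CPM and 4.32, 6.2, 6.96 and 10.1 CPM. Microglia lay far below members on either side. The difference between the 2 hemisphere effects was -3.93 (SE 0.39, adjusted p = 1.38e-20). Clec10a differed by -3.78 (SE 0.49) and Clec12a, an inhibitory lectin receptor, by -3.78 (SE 0.56), and these 3 calls were lost in none of the alternatives run. Clec12a was at 100, 193, 122 and 178 CPM and 114, 251, 106 and 44.4 CPM in members, and rose in microglia from at most 3.39 CPM to between 3.19 and 20.3 CPM. In members it was thus higher on the stroke side in both 24 h pairs. None of these 3 genes was called between hemispheres in members. With microglia at such low levels, the log2 differences are no measure of the CPM gained or lost.

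On the other side stood genes that rose more in members. Il1a was higher in microglia of every library than in members of the same library. Its rise was 1.39 in microglia, from 225, 349, 370 and 321 CPM to 716, 734, 1039 and 862 CPM, and the members' rise was larger by 2.14 (SE 0.41, adjusted p = 9.69e-05, edgeR). Contralateral members lay at or near the level of 3 UMIs (11.6 to 26.3 CPM there). The log2 difference is therefore no measure of the CPM gained, which was larger in microglia. Lrrfip1, a regulator of innate sensing, was at 25.1, 17.6, 108 and 65.6 CPM against 161, 83.8, 351 and 252 CPM in members and 134, 133, 138 and 159 CPM against 134, 143, 122 and 150 CPM in microglia. Its difference between classes was 2.22 (SE 0.38, adjusted p = 5.24e-06). Chil3 (5.58), Tgm2 (4.32), S100a4 (3.08), Hilpda (2.76), Ptgs2 (2.51) and Ell2 (2.44) also passed, and each of these 6 was lost without the stroke-side Prdx1-/- 48 h library (adjusted p = 0.537 for Ptgs2 and 1 for the others). In that library 3 cells rich in Chil3 gave 33.1% of the members' UMIs. Without it 25 genes passed in place of 78.

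**Figure D5:**
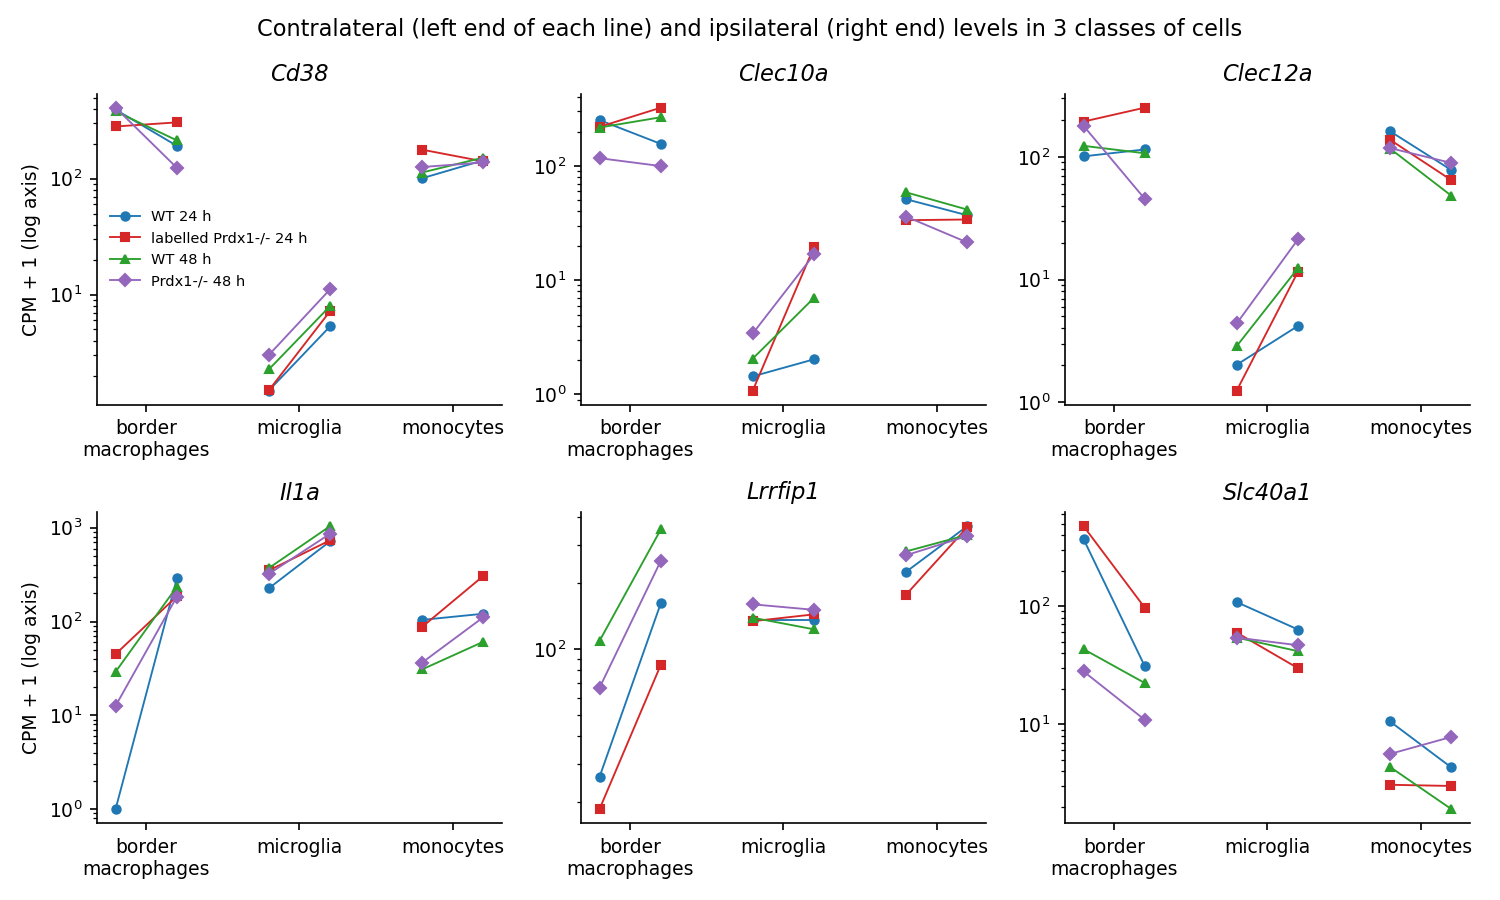
Levels of 6 genes in border macrophages, microglia and monocytes (CPM + 1, log axis), each line joining a contralateral library (left end) to the matched ipsilateral one (right end). Cd38, Clec10a and Clec12a lie at 44.4 CPM or more in members and at 20.3 CPM or less in microglia, and Lrrfip1 lines slope up in members and stay level in microglia.

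Against monocytes 73 genes (0.877%) had a higher and 10 (0.12%) a lower hemisphere difference in members, 0.997% of 8322 genes. S100a4 differed by 3.95 (SE 0.39, adjusted p = 3.2e-13, edgeR) and kept the call without any library. Cyr61, a matricellular protein, was at 209, 457, 436 and 131 CPM and 65.8, 299, 85.1 and 4.94 CPM in members, lower in 4 of 4 pairs, and in monocytes it was at 0 in 4 contralateral libraries and did not pass 2.31 CPM ipsilaterally, so that the fitted difference is no measure of size. Vcam1, the vascular adhesion molecule, was at 1170, 351, 164 and 131 CPM and 83.7, 455, 10.6 and 24.7 CPM in members, and did not pass 5.97 CPM in monocytes. Its difference was -2.16 (adjusted p = 0.02), lost without the stroke-side Prdx1-/- 48 h library (0.675), the stroke-side WT 24 h library (0.299) or the contralateral 24 h library labelled Prdx1-/- (0.108). Areg and Slpi, an epidermal growth factor ligand and a protease inhibitor, were at 0 in all contralateral members. With 3 UMIs over those libraries as the floor, ipsilateral members held at least 28.7-fold and 44.4-fold more, from 3 and 6 cells. The test for Areg did not pass with all 8 libraries (adjusted p = 0.995), nor that for Slpi without either 48 h Prdx1-/- library (1).

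Between 24 h and 48 h 6 genes were higher (0.217%) and 7 lower (0.253%) at the later time, 0.471% of 2763 genes. Only 2 passed without the contralateral WT 48 h library and 3 without the contralateral WT 24 h library. Ferroportin fell by 3.51 (SE 0.39, adjusted p = 0.00067, edgeR), the largest change of the named genes, and the call held in the 5 fits with 1 library left out that tested it. Without either 24 h contralateral library it fell under the filter on low counts. Igf1, insulin-like growth factor 1, was at 343 and 281 CPM at 24 h and 37.5 and 65.6 CPM at 48 h contralaterally, and at 41.9, 162, 10.6 and 4.94 CPM in the 4 ipsilateral libraries. Each 48 h library lies below its 24 h counterpart, a fall of 2.90 (SE 0.44, adjusted p = 0.0135). Igfbp4, which binds that growth factor, fell by 2.32 (adjusted p = 0.0135, lost in 4 of 7 fits with 1 library left out, up to 0.126) and Cd36, a fatty acid and lipoprotein receptor, by 1.68 (lost in 7 of 7 fits with 1 library left out, adjusted p = 0.066 to 0.299). S100a4 and S100a6 rose by 3.20 and 2.42. The Igf1, S100a4 and S100a6 calls were lost without the contralateral WT 48 h library (adjusted p = 0.22, 0.0639 and 0.0639), and that of Igf1 also without the contralateral WT 24 h library (0.126). Gm42418, a gene model that overlaps ribosomal RNA, fell by 1.86 in members, and in microglia it went from 13518 and 14777 CPM at 24 h to 5038 and 5594 CPM at 48 h contralaterally. Each library holds a single time, so time and library handling cannot be told apart.

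Between labelled genotypes 0 of 2763 genes passed (edgeR and DESeq2 alike, 0% called), and 179 had an unadjusted p under 0.05 by edgeR. The smallest adjusted p was 0.132. Ptgs2 was at -2.08 (SE 0.37), Tnfsf9, a costimulatory ligand, at -3.46 (SE 0.53) and Icam1, an adhesion molecule, at -1.84 (SE 0.35) in libraries labelled Prdx1-/-. Cd36 was at 1.47 (SE 0.32, adjusted p = 0.178).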

How the data were processed

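The deposited values are UMI counts per gene and cell, whole numbers with no normalization, one table per library. Per the submitters' processing notes, Cell Ranger, Seurat and mm10 were used, without versions or roles. The deposited counts had been filtered: the shallowest cell held 501 UMIs and 204 genes. Cells with over 10% mitochondrial UMIs (337 of 39945) were left out here. Counts were summed per library over members and over microglia, monocytes and neutrophils defined by counting rules, and CPM are per 1000000 summed UMIs. Genes were fitted with edgeR 4.0.16 (R 4.3.3; quasi-likelihood, robust, TMM, filterByExpr, Benjamini-Hochberg over all genes tested), with DESeq2 1.42.0 beside it, on libraries with at least 10 members. SE is the fold change over the root of F. Doublets were scored with Scrublet in scanpy 1.11.5 (the top 0.8% per 1000 cells marked) and members kept. The fit was tested on simulated data.

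The members, lists and tests were chosen with earlier results of these data known. Genes named between hemispheres passed the test at a mean of at least 50 CPM with 1 sign in all 4 pairs, the 12 largest each way, plus up to 4 per list by p. Some listed genes that did not pass, among them Pf4, Dab2 and Il1b, were named outside this rule. For time and genotype 6 each way were taken, or the 3 smallest p, and for class differences 8 each way. Il1a, Lrrfip1 and Slc40a1 between classes were added because the hemisphere rule named them. The Lyve1 split of lists other than class II was chosen after its values were seen.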

Additional observations from a re-analysis of the deposited data

Results flagged for a closer look

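A total of 78 genes had a hemisphere difference in border macrophages that differed from the one in microglia, and 83 genes had one that differed from the one in monocytes, both by edgeR's test of the interaction between class and hemisphere. No group of 4 libraries among the 36 examined had a single library far from the other 3.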

How the results depend on the processing

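The share of all cells was lower on the stroke side under every alternative except without the Arg1 limit (0.099), and ranged from -1.03 to -0.50 with 1 library left out. The share outside microglia ranged from -2.84 to -2.33, and as a replicate block of matched pairs its p was 0.125, the smallest 4 pairs allow, at -2.64. The class II difference ranged from -7.19 to -5.69. The 32 genes called between hemispheres became 193 without the filter on low counts, 178 with 1 UMI enough for each marker, 60 without the Arg1 limit, 13 at 5% mitochondrial UMIs and 12 to 48 with 1 library left out (20 and 12 without the contralateral and stroke-side WT 24 h libraries, 21 without the contralateral 24 h library labelled Prdx1-/- or the contralateral WT 48 h library, 14 without the stroke-side Prdx1-/- 48 h library). The replicate block of genotype and time left 22. Alternatives added after the data were seen gave 4 (at least 4 UMIs), 3 (no marked doublets) and 1 (rule on thinned counts) over all 8 libraries, 7 with members capped at 5000 UMIs, 65 at 48 h alone and 5 in libraries labelled WT. The 13 time calls became 95 unfiltered and 2 to 17, and the 0 genotype calls 43 unfiltered and 0 to 2. The interactions gave 25 to 92 calls against microglia and 39 to 114 against monocytes, and 51 against monocytes over all 8 libraries. For calls that changed, the cause was not tested. Single genes reversed 5 times: S100a6 (-1.33) and Ccr2 (-2.45) without marked doublets, and, with 1 library left out, Chil3 (-0.77 to 5.83) and Hilpda (-0.51 to 3.46) against microglia and Vcan (-1.59 to 4.58) against monocytes, the lowest each time without the stroke-side Prdx1-/- 48 h library. With 10 members per library too few libraries were left to run the stricter rule, the thinned rule, 48 h alone or WT alone.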
